A study of Mus musculus with 14 samples.

Results

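The high mobility group genes described here are Hmgb1, Hmgb2, Hmgb3, Hmga1, Hmga2, Hmgn1, Hmgn2, Hmgn3 and Hmgn5, 9 of the 24064 genes in the count table of single mouse oocytes. They were chosen by a measured value: Hmgb2 was far higher in oocytes lacking Kdm1a than in control oocytes, and the other 8 genes are its relatives in the 3 high mobility group classes. Kdm1a encodes the lysine demethylase KDM1A (LSD1), and the comparison asks whether the relatives of Hmgb2 moved with it when the maternal pool of the enzyme was removed. Because the mutant and control levels of Hmgb2 chose the set, they are given as a description with no test, while the relatives were tested in a fit over the whole table.

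The control oocytes were 4 wt/wt oocytes of the C57BL/6J strain, named wt1, wt3, wt4 and wt5, and 1 f/f oocyte of a mixed B6;129 background, C3, which carried the floxed Kdm1a allele without the cre transgene. The mutants were 5 oocytes of the mixed B6;129 background from Kdm1a f/f::Zp3cre females, called D1, D2, D3, D4 and D7. There the cre transgene is driven by the oocyte-specific Zp3 promoter, so that the first exon of Kdm1a is lost during oocyte growth while the surrounding follicle cells keep the gene. All oocytes were ovulated by superovulated females, and their zona pellucida was removed before lysis. Strain and library naming coincide with wt/wt against the rest, so their part in a difference from the wt/wt oocytes cannot be told apart from genotype except through the single f/f oocyte. C3, D3, D4 and D7 have 2 libraries apiece under 1 name, which were summed as 1 oocyte. The sample descriptions number these libraries as separate oocytes, so the summing, and with it n = 5 and the single f/f oocyte, is a reading of the names. Each name counted once matches the numbers of control and mutant oocytes in the study's methods. In each pair of libraries 1 has DNA added to its name, which the sources used here do not explain. Nothing states whether the oocytes came from separate females.

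Total counts ran from 1375187 to 1892015 in the wt/wt oocytes and from 2016701 to 6926076 in the mutants, with 6928548 in the f/f oocyte. At these depths 3 counts corresponded to 0.456 to 1.83 CPM, the counts scaled to a common library size that was adjusted by TMM factors. Kdm1a itself had 27 to 85 counts in the wt/wt oocytes, 0 to 10 in the mutants and 669 in the f/f oocyte, with a log2 fold change of -5.02 (SE 0.86, edgeR adjusted p = 0.0011). The 12 oocyte markers all had counts in these libraries. Of 15 markers of cumulus and granulosa cells, the somatic cells around the oocyte, 9 had no count in any oocyte, among them Fshr, Lhcgr, Foxl2, Amh, Inha, Ptx3 and Tnfaip6. The summed CPM of the 15 was 18.8 to 67.4 among wt/wt controls, 64.6 for f/f and 84.1 to 149 among mutants, and most of it was Cyp19a1, the aromatase of granulosa cells, which rose from 37.8 ± 22.6 to 105.7 ± 26.7 CPM (SD, n = 5 each; log2 fold change 1.48, edgeR adjusted p = 0.0262). The Cyp19a1 call was lost without wt3 (edgeR adjusted p = 0.0618), with library totals as the scale (edgeR adjusted p = 0.0591) and against the f/f oocyte alone (log2 fold change 0.75, edgeR adjusted p = 0.605). Nr5a2, the other of the 2 markers with enough counts to be tested, had 8.13 ± 3.84 CPM in controls and 2.71 ± 2.17 CPM in mutants (SD, n = 5 each; log2 fold change -1.60, edgeR adjusted p = 0.0916). Of these 2 markers, 1 was called higher and 0 lower, beside 14.7% higher and 11.2% lower of all genes tested. The calls were 0 higher and 1 lower with library totals as the scale. They were 1 in each direction against the wt/wt oocytes alone and without D7. The part of such RNA in the differences between mutant and control oocytes was not tested.

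High mobility group proteins are small and abundant chromatin proteins that bind without strong sequence preference. HMGB proteins carry HMG boxes that bend DNA, HMGA proteins hold the minor groove of AT-rich DNA through AT hooks, and HMGN proteins bind the nucleosome core and counteract its compaction by linker histone. HMGB1 is near ubiquitous and also acts as a danger signal outside the cell, HMGB2 is best known from proliferating cells and the germ line, and HMGB3 from early and haematopoietic cells. A fully grown oocyte is transcriptionally silent and carries stored maternal mRNA, so the counts describe a store and not ongoing synthesis.

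The upstream sequences of the Hmgb genes are shown because these 3 genes had the most copies of CCAAT among the members. RefSeq on GRCm38.p6 held a promoter entry for 8 of the 9 genes, with none for Hmgn3. The 250 bases before the annotated start are given 5′ to 3′ on the gene's own strand, with each CCAAT, the letters read by the factor NF-Y, in capitals. Hmgb2 is at chr8:57511593-57511842 (plus strand), Hmgb1, at the first of its 2 listed starts, at chr5:149053058-149053307 (minus strand), and Hmgb3 at chrX:71555667-71555916 (plus strand).
Hmgb2: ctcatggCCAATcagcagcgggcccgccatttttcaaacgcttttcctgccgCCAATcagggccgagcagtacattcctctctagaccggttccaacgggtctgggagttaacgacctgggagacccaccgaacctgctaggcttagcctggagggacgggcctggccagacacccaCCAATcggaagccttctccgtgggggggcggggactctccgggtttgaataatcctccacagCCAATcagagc
Hmgb1: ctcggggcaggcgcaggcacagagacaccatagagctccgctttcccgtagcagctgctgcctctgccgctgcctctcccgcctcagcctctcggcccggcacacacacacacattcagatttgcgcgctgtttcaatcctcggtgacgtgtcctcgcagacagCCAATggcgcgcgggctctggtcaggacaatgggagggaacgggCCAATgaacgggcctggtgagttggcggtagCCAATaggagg
Hmgb3: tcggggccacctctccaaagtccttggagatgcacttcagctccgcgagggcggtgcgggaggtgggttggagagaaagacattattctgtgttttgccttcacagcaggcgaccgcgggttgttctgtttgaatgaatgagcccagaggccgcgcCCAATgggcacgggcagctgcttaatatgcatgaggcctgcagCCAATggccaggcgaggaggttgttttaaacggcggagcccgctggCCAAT

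Hmgb2 held CCAAT 4 times in this window, beginning at -243, -198, -73 and -11 from the start, Hmgb1 3 times at -86, -42 and -11, and Hmgb3 3 times at -94, -51 and -5, each on the strand of the gene. Among 32851 RefSeq promoter windows of the same length, searched on both strands, 2.79% held at least 3 copies and 0.840% at least 4. The window of the other Hmgb1 start held none. Outside the Hmgb class, Hmgn1 held 2 copies and Hmgn5 held 2, against 10.1% of windows with at least 2, and Hmga1, Hmga2 and Hmgn2 held none. The letters TTTGAA, known from promoters of cell cycle genes, occurred in 2 copies in the Hmgb2 window and in 1 copy in that of Hmgb3, and 1.81% of windows held at least 2 copies. The E2F letters TTTGGCGC and TTTCCCGC were in none of the members' windows and in 0.417% and 0.895% of all windows. The GC box letters GGGCGG were in the windows of all matched members but Hmgn5 and the first start of Hmgb1, and in 32.7% of all windows. The members' windows were 56.4% to 78.8% GC, against a median of 52.4% over all windows, so the 2 shares are not on a like base. These matches describe letters only, and none of the copies of the other motifs in the Hmgb windows shared a base with a CCAAT.

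Hmgb2 (chr8:57511907-57515999, plus strand, GRCm38) was the member with the greatest difference between mutant and control oocytes. The wt/wt oocytes had 60, 56, 65 and 65 Hmgb2 counts, or 33.2, 24.2, 26.6 and 29.2 CPM in the order wt1, wt3, wt4 and wt5, and the f/f oocyte had 86 counts, or 19.1 CPM. In D1, D2, D3, D4 and D7 there were 669, 644, 1026, 5110 and 450 counts, or 366.9, 392.3, 365.3, 777.2 and 224.4 CPM. Every mutant lay above every control oocyte, and D4 was the highest. The mean was 26.4 ± 5.29 CPM (SD, n = 5) in controls and 425.2 ± 208 CPM (SD, n = 5) in mutants, 16.1 times higher, with a fitted log2 fold change of 4.01 (SE 0.40). The estimate was 3.91 against the wt/wt oocytes alone and 4.47 against the f/f oocyte alone. The coefficient of variation was 13.6% among wt/wt oocytes, 20% among all 5 controls and 48.8% among mutants. Where an oocyte name had 2 libraries, they gave like CPM of the library total in mutants, 323 and 300.2 in D3, 771 and 699.0 in D4 and 211 and 209.9 in D7. The f/f libraries gave 9.09 and 15.6.

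**Figure D1:**
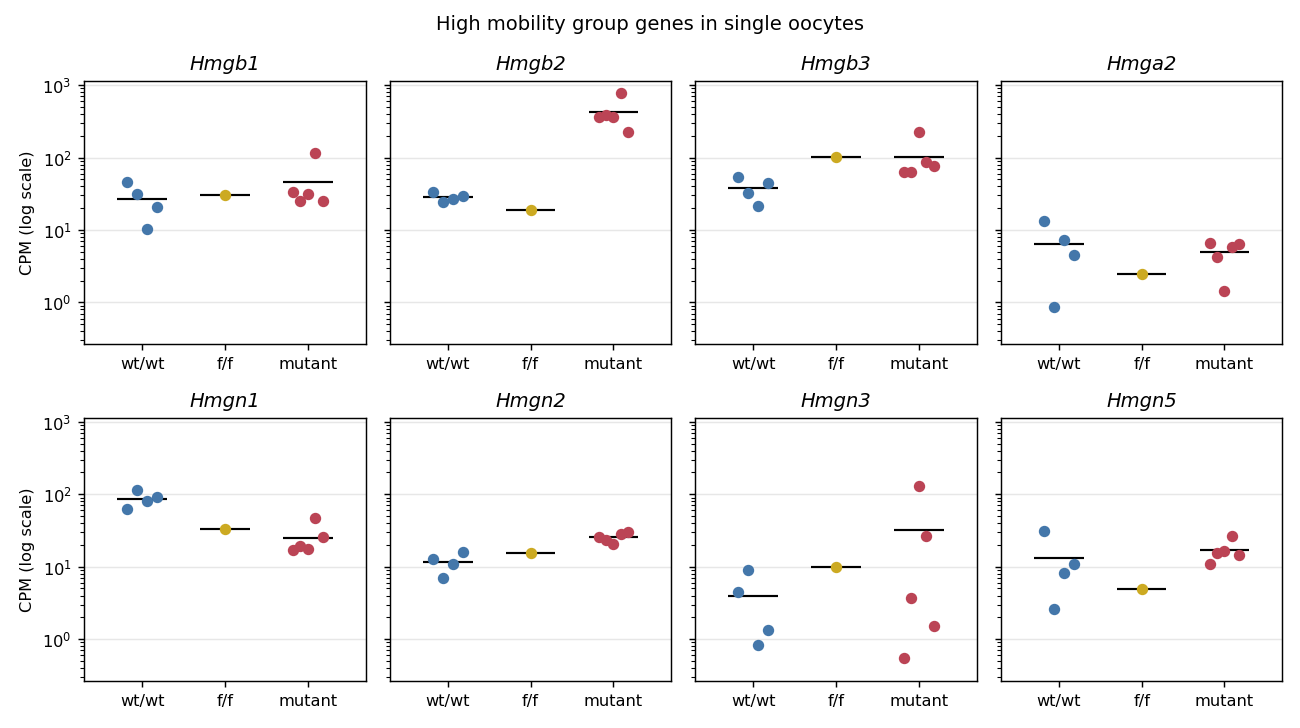
CPM on a log axis of the 8 members with counts, in 4 wt/wt, 1 f/f and 5 mutant oocytes. Points are oocytes and black lines are group means. On this TMM-adjusted scale only Hmgb2 and Hmgn2 have every mutant above every control, with Hmgb2 at 224.4 to 777.2 CPM in mutants, while Hmgn1 is lower in 4 of 5 mutants than in any control.

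Of the 8 relatives, Hmga1 had no count in any oocyte and 7 passed the filter and were tested. Among these 7, 1 was called lower at an edgeR adjusted p under 0.05 with at least a log2 fold change of 1, namely Hmgn1, and 0 were called higher. At an unadjusted p under 0.05 there were 3 higher and 1 lower, and DESeq2 called 1 of the 7 higher, Hmgn2. Over all 9198 genes tested, 25.9% were called, 14.7% higher and 11.2% lower. The median log2 fold change of the 7 relatives was 0.75 and that of all genes tested 0.17. The sum of all relatives was 188.8 ± 31.0 CPM (SD, n = 5) in controls and 253.4 ± 129 CPM (SD, n = 5) in mutants, with overlapping ranges.

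Hmgb1 (chr5:149046702-149184489, minus strand), the best known gene of the class, had 45.3, 31.5, 10.2 and 20.6 CPM in wt1, wt3, wt4 and wt5, and 30.4 CPM in the f/f oocyte. In the mutants it had 32.9, 25.0, 31.0, 116.1 and 25.4 CPM in D1, D2, D3, D4 and D7. D4 stood alone above the controls, and the other 4 mutants lay within their range. The log2 fold change was 0.75 (SE 0.50, 95% interval -0.31 to 1.81, edgeR adjusted p = 0.281), and without D4 it was 0.06.

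Hmgb3 (chrX:71555918-71560676, plus strand) had 54.2, 32.4, 21.3 and 44.4 CPM in wt1, wt3, wt4 and wt5 and 100.1 CPM in the f/f oocyte. Mutants D1, D2, D3, D4 and D7 showed 62.5, 62.1, 223.3, 85.9 and 77.3 CPM. On this TMM-adjusted scale every mutant was above every wt/wt oocyte, but the f/f oocyte was above 4 of the 5 mutants. As CPM of library totals, D1 with 48.6 and D2 with 50.6 were below wt1 with 71.3 and wt5 with 60.5. The f/f oocyte with 65.1 was then above D1 and D2 only. The log2 fold change was 1.02 (SE 0.47, 95% interval 0.026 to 2.01, edgeR adjusted p = 0.118) against all controls, and 0.52 without D3 (edgeR adjusted p = 0.393). It was 1.43 against the wt/wt oocytes alone (edgeR adjusted p = 0.0250, called) and 0.03 against the f/f oocyte (edgeR adjusted p = 0.985). The f/f level was 2.63 times the wt/wt mean, and whether strain or library series has a part in this cannot be told apart with 1 f/f oocyte.

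Hmga1 (chr17:27556497-27563674, plus strand), which acts as an architectural factor at enhancers, had 0 counts in all 10 oocytes. Its level was therefore at or under the 3 counts that a count of 0 allows, 0.456 to 1.83 CPM per oocyte. Only 30.7% of the 49-base windows of its mRNA were absent from the transcripts of other genes, with most of the rest shared with Hmga1b, so reads of Hmga1 could have been dropped as not unique. Hmga2 (chr10:120361275-120476469, minus strand), a fetal and stem cell gene repressed by let-7, was counted in every oocyte at low level, with 2 to 24 counts in controls and 4 to 38 in mutants. It had 0.863 to 13.3 CPM in controls and 1.42 to 6.58 CPM in mutants, and the mutant range lay inside that of the controls. Its log2 fold change was -0.19 (SE 0.69, 95% interval -1.64 to 1.26, edgeR adjusted p = 0.861), and it was 0.37 without wt1, 0.07 without D3 and 0.99 against the f/f oocyte alone.

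Among the nucleosome-binding Hmgn genes, Hmgn1 (chr16:96120618-96127729, minus strand) fell. It had 63.0, 112.6, 80.2 and 90.6 CPM in wt1, wt3, wt4 and wt5 and 32.9 CPM in the f/f oocyte. In D1, D2, D3, D4 and D7 it had 17.0, 19.5, 17.5, 46.7 and 25.4 CPM. All 5 mutants were below every wt/wt oocyte and 4 of 5 were below the f/f oocyte as well, with D4 above it. As CPM of library totals, D7 with 23.9 was above the f/f oocyte with 21.4 too. The mean was 75.9 ± 30.0 CPM in controls and 25.2 ± 12.5 CPM in mutants (SD, n = 5 each), and the fitted log2 fold change was -1.57 (SE 0.42, 95% interval -2.46 to -0.69, edgeR adjusted p = 0.0130). Against the wt/wt oocytes alone it was -1.77 (edgeR adjusted p = 0.00281). Against the f/f oocyte alone it was -0.37 (edgeR adjusted p = 0.773), with the f/f level at 0.379 of the wt/wt mean.

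Hmgn2 (chr4:133964738-133968650, minus strand) had 12.7, 6.91, 11.0 and 16.2 CPM in wt1, wt3, wt4 and wt5 and 15.3 CPM in the f/f oocyte. The mutants had 25.8, 23.2, 20.3, 28.6 and 30.4 CPM in D1, D2, D3, D4 and D7. The groups did not overlap, which held for 16.2% of all genes tested, and the coefficient of variation of the summed mutants was 15.9%. As CPM of the library totals, without TMM factors, the groups did overlap, with 9.19 to 21.99 in controls and 17.6 to 28.6 in mutants. The paired libraries agreed less than for Hmgb2. CPM of the library total were 10.4 and 49.7 in D7, 19.8 and 35.8 in D4, 14.3 and 25.8 in D3, and 7.33 and 12.5 in C3. In each pair the higher value came from the library with DNA in its name, and no wt/wt oocyte had such a library. The part of this label in the Hmgn2 difference was not tested. The log2 fold change was 1.04 (SE 0.39, 95% interval 0.22 to 1.87), and its edgeR adjusted p of 0.0583 missed the threshold. It passed with DESeq2 (adjusted p = 0.0198), with the filterByExpr filter (edgeR adjusted p = 0.0359), without wt5 (edgeR adjusted p = 0.0490) and against the wt/wt oocytes alone (edgeR adjusted p = 0.0471). It was further from the threshold with library totals as the scale (0.64, edgeR adjusted p = 0.324), with 1 library per oocyte (0.76, edgeR adjusted p = 0.192), with no filter (edgeR adjusted p = 0.130) and against the f/f oocyte alone (0.74, edgeR adjusted p = 0.571).

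Hmgn3 (chr9:83109948-83146685, minus strand), best known from neural and endocrine cells, was the member that varied most between mutants. It had 4.42, 9.06, 0.818 and 1.35 CPM in wt1, wt3, wt4 and wt5, and 9.99 CPM in the f/f oocyte. Mutants D1, D2, D3, D4 and D7 showed 1, 6, 367, 174 and 3 counts, or 0.548, 3.66, 130.7, 26.5 and 1.5 CPM. D3 and D4 lay above every control, D1 lay below every control, and the highest mutant had 238 times the CPM of the lowest. That lowest value, in D1, was 1 count, under the 1.645 CPM of 3 counts there, so neither its place nor the exact ratio is resolved. The libraries of D3 gave 108 and 126 CPM of their totals and those of D7 0.870 and 2.03, so the difference between these oocytes stood in each library. The log2 fold change of 2.64 (SE 1.07, 95% interval 0.38 to 4.90, edgeR adjusted p = 0.0771) was 0.68 without D3. It was called with no filter (2.63, edgeR adjusted p = 0.0091), with every library as its own sample (2.74, edgeR adjusted p = 0.0374) and without D7 (2.96, edgeR adjusted p = 0.0441).

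Hmgn5 (chrX:109004534-109013404, minus strand), which has a long acidic tail, had 31.5, 2.59, 8.18 and 10.8 CPM in wt1, wt3, wt4 and wt5 and 4.88 CPM in the f/f oocyte. The mutants had 11.0, 15.2, 16.4, 26.9 and 14.5 CPM in D1, D2, D3, D4 and D7. On this TMM-adjusted scale all mutants lay above each control but wt1, which was above them all. As CPM of library totals, wt5 with 14.7 was above D1, D2, D3 and D7. The log2 fold change was 0.56 (SE 0.58, 95% interval -0.66 to 1.79, edgeR adjusted p = 0.495). It was 1.35 without wt1 and 0.06 with library totals as the scale. The Hmgn class summed to 105.0 ± 26.0 CPM in controls and 100.2 ± 55.6 CPM in mutants (SD, n = 5 each), and these ranges overlapped.

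**Figure D2:**
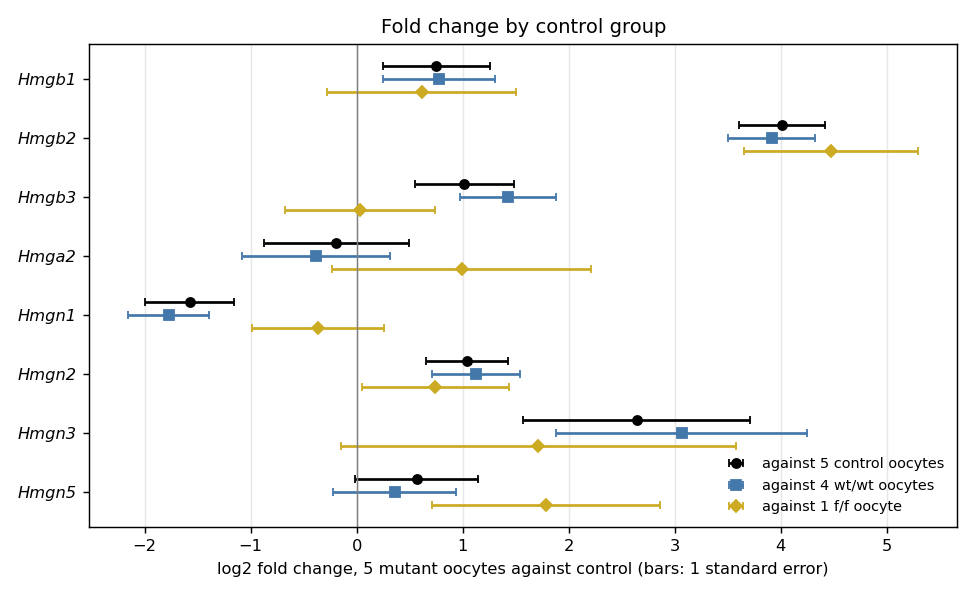
Log2 fold change of mutant oocytes against all 5 controls, the 4 wt/wt oocytes and the f/f oocyte, with bars of 1 standard error. Hmgb2 lies at 3.91 to 4.47 whichever control is used, while Hmgb3 moves from 1.43 against wt/wt to 0.03 against f/f and Hmgn1 from -1.77 to -0.37.

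Ratios taken within an oocyte do not depend on the scaling between oocytes. There was 0.628 to 2.60 Hmgb2 count per Hmgb1 count in controls and 6.70 to 15.7 in mutants. Per Hmgb3 count it was 0.191 to 1.25 in controls and 1.64 to 9.04 in mutants, where D3 with its high Hmgb3 was the lowest mutant. Per Hmgn1 count it was 0.215 to 0.581 in controls, so that Hmgn1 had more counts than Hmgb2 in every control, and 8.82 to 21.6 in mutants. The ratio to Hmgn2 was 1.25 to 3.5 and 7.38 to 27.2, to Hmgn5 1.05 to 9.33 and 15.5 to 33.5, and to Hmga2 2.5 to 28 and 34.6 to 256.5, each in controls and in mutants. For 6 of the 7 relatives the ratio ranges did not overlap, and for Hmgn3 they did. As Hmgb2, chosen for its higher level in mutants, enters each ratio, these ranges are descriptions. A gene that changed little would separate in the same way, and the share over all genes is not given.

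**Figure D3:**
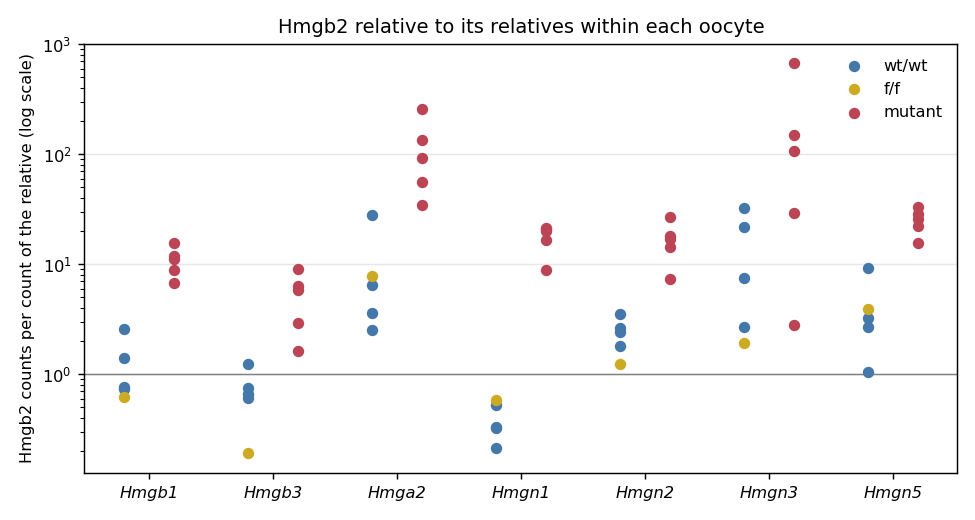
Hmgb2 counts divided by the counts of each relative in the same oocyte, on a log axis, for wt/wt, f/f and mutant oocytes. The mutants lie above the controls for each relative except Hmgn3, where D3 with 2.80 and D4 with 29.4 lie among the controls.

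Levels were compared between genes per kb of mRNA, with lengths capped at the 3 kb that the cDNA reaches from the poly(A) tail. In wt/wt oocytes Hmgn1 was first with 39.8 ± 9.55 CPM per kb, followed by Hmgb3 with 21.8 ± 8.21, Hmgb2 with 10.8 ± 1.46 (SD, n = 4), Hmgb1 with 9.49, Hmgn2 with 9.25, Hmgn5 with 6.86, Hmgn3 with 3.98 and Hmga2 with 2.16. Each neighbouring pair down to Hmga2 overlapped between oocytes, so only the broad order is resolved. In mutants Hmgb2 was first with 161.8 ± 79.0 CPM per kb, above Hmgb3 with 58.7 ± 39.3 (SD, n = 5) in 5 of 5 oocytes, and the mean levels of Hmgn3 (33.1), Hmgn2 (20.3), Hmgb1 (16.2), Hmgn1 (11.6), Hmgn5 (8.68) and Hmga2 (1.64) followed. All neighbouring pairs in the mutants down to Hmgn5 overlapped too, and the place of Hmgn3 rested on D3. The f/f oocyte had Hmgb3 first with 57.4, Hmgn1 next with 15.1 and Hmgb2 with 7.27 CPM per kb.

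Within the Hmgb class, Hmgb2 gave 21.2%, 23.7%, 39.0% and 25.3% of the summed CPM per kb in wt1, wt3, wt4 and wt5 and 9.63% in the f/f oocyte. In D1, D2, D3, D4 and D7 it gave 74.6%, 77.1%, 50.0%, 76.6% and 61.6%. Hmgb3 held the greatest share in every control, 47.1% to 76.2%, and Hmgb2 in every mutant. With levels taken over windows found in no other gene, D3 instead had 45.2% Hmgb2 and 50.2% Hmgb3, and the other 4 mutants kept Hmgb2 first. Without Hmgb2 the Hmgb class summed to 78.1 ± 37.9 CPM in controls and 148.3 ± 75.4 CPM in mutants (SD, n = 5 each), and these ranges overlapped.

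**Figure D4:**
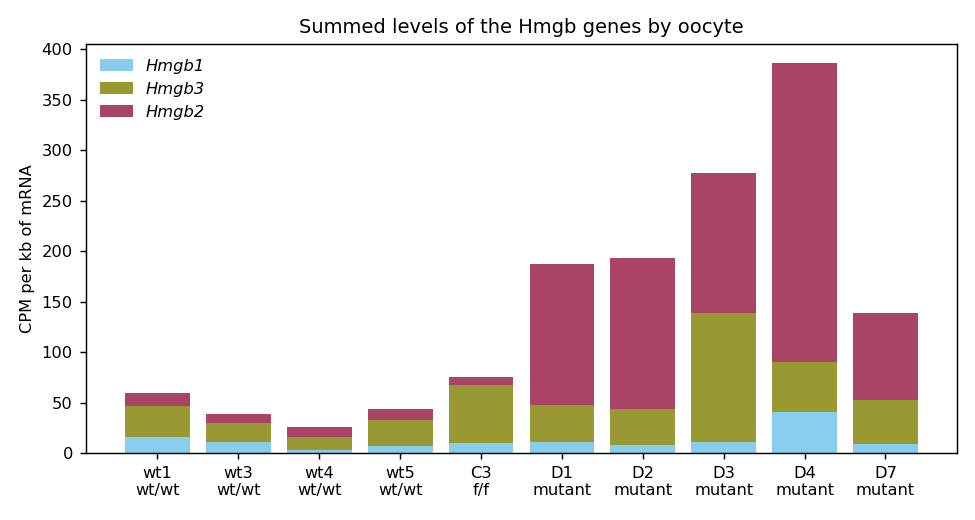
Stacked CPM per kb of mRNA of Hmgb1, Hmgb3 and Hmgb2 in each oocyte. The stacks reach 25.9 to 75.4 CPM per kb in controls and 138.7 to 385.9 in mutants, and Hmgb2 makes up 50.0% to 77.1% of each mutant stack.

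High mobility group genes have many processed copies in the genome, and only reads with a unique best alignment were counted. Of the 49-base windows in the last 3 kb of each mRNA, the percentage found in no transcript of another GENCODE gene was 96.2 for Hmga2, 93.3 for Hmgn1, 81.2 for Hmgn5, 78.0 for Hmgb2, 77.9 for Hmgn3, 65.4 for Hmgb3, 59.0 for Hmgb1 and 32.5 for Hmgn2. In the last 500 bases, nearest the priming site, Hmgb1, Hmgb2, Hmgn1, Hmgn3 and Hmgn5 had 0 shared windows, Hmgb3 had 10, Hmga2 41, Hmgn2 299 and Hmga1 403. The levels of Hmgn2 and Hmga1 relative to other genes are therefore uncertain, and a comparison of 1 gene between oocytes passes through the same windows in each.

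The 5 genes nearest to Hmgb2 in profile over the 10 oocytes, by the root mean square difference of centred log2 CPM, were As3mt (0.261), Dppa1 (0.432), Cetn2 (0.490), Tgm4 (0.546) and Cdk2 (0.548). They encode an arsenite methyltransferase, a protein of pluripotent cells, a centrin, a transglutaminase and a cyclin-dependent kinase. Among 9197 genes ranked in this way, the relatives came at place 1556 (Hmgn2), 2211 (Hmgn5), 2372 (Hmgb3), 2743 (Hmgb1), 5007 (Hmga2), 6590 (Hmgn3) and 8249 (Hmgn1). The log2 fold changes of the 5 nearest genes ran from 3.47 (Cetn2) to 6.34 (As3mt). No relative was among the near neighbours, and the points share libraries and depth. The distance includes the gap between mutants and controls that chose Hmgb2, so a gene with a much smaller gap could not rank near it. These places are therefore descriptions.

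Other genes with an HMG box numbered 44, of which 10 had no count, 23 were tested, 1 was called higher and 5 lower (3 and 5 with DESeq2), beside 14.7% higher and 11.2% lower of all genes. Without wt1 or wt4 there were 0 higher and 3 lower by edgeR, and without wt3 1 higher and 3 lower. Their median log2 fold change was -0.19, against 0.17 for all genes. Lef1, the nuclear partner of β-catenin, fell by 4.05 on the log2 scale (38.0 ± 46.9 to 2.14 ± 1.93 CPM, SD, n = 5 each, edgeR adjusted p = 0.00322), with the f/f oocyte at 121.4 CPM, and by 2.92 without that oocyte. Sox13 had 0 counts in all mutants against 3.46 ± 2.75 CPM (SD, n = 5) in controls, at least 2.67-fold lower against 3 counts per mutant oocyte (edgeR adjusted p = 0.00784). The f/f oocyte had 0.222 Sox13 CPM, under its own level of 3 counts, and against it alone the adjusted p was 0.391 (edgeR). Sox6 rose from 2.69 ± 4.97 to 21.7 ± 5.97 CPM (SD, n = 5 each; log2 fold change 2.85, edgeR adjusted p = 0.0248), and its adjusted p was 0.0555 without wt1 and 0.0579 without wt4. With the f/f oocyte at 11.5 CPM, the Sox6 estimate was 5.44 without it and 0.91 against it alone (edgeR adjusted p = 0.601). Hmg20b, a subunit that accompanies KDM1A in CoREST complexes, had a log2 fold change of 2.65 (SE 1.09, edgeR adjusted p = 0.0814), and DESeq2 called it (2.80, adjusted p = 0.0482). Hmg20b had only 0 to 2 counts in each control and 1 to 17 in each mutant.

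Of 9 linker histones, with which HMGN proteins compete on nucleosomes, 5 had no count and 2 were tested. H1f0, the histone H1.0 of resting cells, fell by 1.67 on the log2 scale (169.9 ± 73.0 to 53.6 ± 20.9 CPM, SD, n = 5 each, edgeR adjusted p = 0.00645), and the list had 0 called higher, also with DESeq2, and 1 higher at an unadjusted p under 0.05. That was H1foo, the oocyte linker histone and by far the more abundant, with 12880 ± 8468 CPM in controls and 25500 ± 9430 CPM in mutants (SD, n = 5 each; log2 fold change 0.99, edgeR adjusted p = 0.126). Against the wt/wt oocytes alone 1 was called higher and 1 lower. The summed CPM of the 9 genes was 6188 to 13180 among wt/wt controls, 27470 for f/f and 17020 to 40060 among mutants. Of 8 partners of HMGB2 in the SET complex, a group of chromatin and DNA repair proteins, 7 were tested, 0 were called higher by edgeR or DESeq2 (1 at an unadjusted p under 0.05) and 1 was called lower, beside 25.9% called among all genes. With library totals as the scale, and against the wt/wt oocytes alone, edgeR called 1 higher and 1 lower. The gene called lower in the main fit was Nme2, a nucleoside diphosphate kinase. Nme2 had 23.0 ± 23.4 CPM in controls and 1.48 ± 1.17 CPM in mutants (SD, n = 5 each, edgeR adjusted p = 0.00821). Its level in the f/f oocyte was 0.222 CPM, below the mutant mean.

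Of 9 genes of the Lin28, let-7 and Igf2bp axis that governs Hmga2 mRNA, 6 were tested, 0 were called higher by edgeR or DESeq2 (0 at an unadjusted p under 0.05) and 1 lower, beside 25.9% called among all genes. With no filter edgeR called 1 higher and 1 lower of 9. Igf2bp3, which binds and stabilises Hmga2 mRNA, fell by 2.02 on the log2 scale (222.7 ± 75.2 to 55.1 ± 13.2 CPM, SD, n = 5 each, edgeR adjusted p = 0.00118). Of 10 receptors and partners of extracellular HMGB1, 6 had no count, 2 were tested and 0 were called by edgeR or DESeq2 (0 at an unadjusted p under 0.05).

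Of 30 proliferation genes, a list chosen because Hmgb2 marks dividing cells, 8 were called higher and 3 lower, against 14.7% and 11.2% of all genes tested, and 17 of the 30 had a positive log2 fold change. Nusap1, a spindle microtubule protein, rose from 8.19 ± 5.05 to 220.9 ± 201 CPM (SD, n = 5 each; log2 fold change 4.74, edgeR adjusted p = 0.00050). Aurkb, the kinase of the chromosomal passenger complex, rose from 9.59 ± 5.29 to 66.6 ± 27.0 CPM (SD, n = 5 each; log2 fold change 2.80, edgeR adjusted p = 0.000893). Cenpa, the centromeric histone, fell by 1.51 on the log2 scale (edgeR adjusted p = 0.00611) and Anln, a cytokinesis protein, by 1.33 (edgeR adjusted p = 0.00933). Against the f/f oocyte alone Cenpa was at -1.14 (edgeR adjusted p = 0.231) and Anln at -0.48 (edgeR adjusted p = 0.603). The list was thus split, and with library totals as the scale 4 of its genes were called higher and 6 lower. Leaving out wt3, wt4 or D1 also left 4 called higher, leaving out D2 left 5, and 3 were called lower in each case. Of the 12 oocyte markers 7 were called higher and 0 lower by edgeR or DESeq2 (0 lower at an unadjusted p under 0.05), among them Zp2, of the zona pellucida (log2 fold change 4.75, edgeR adjusted p = 0.000448), and Figla, its transcription factor (5.71, edgeR adjusted p = 0.00186).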

How the data were processed

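RNA of single ovulated oocytes was copied from the poly(A) tail, with cDNA reaching up to 3 kb, and sequenced as single-end 49-base reads. As deposited, the values are raw counts for each RefSeq gene. The authors removed low-quality and AT-rich reads, aligned to mm10 with TopHat 2.0.6, kept unique best alignments and counted with HTSeq (0.5.3p9 in the submitters' processing notes). Strand use was not given in the sources used here. Columns of the count table mapped to no sample: 0.

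The 14 libraries were summed by oocyte name into 10 oocytes. Genes with a count (15432) were ranked by total count, the top 60% (9198) were kept as in the study, and edgeR 4.0.16 in R 4.3.3 (TMM, glmQLFit and glmQLFTest, genotype as the one term, Benjamini-Hochberg over all kept genes) compared mutant with control. A gene was called at adjusted p under 0.05 and absolute log2 fold change of at least 1. With single oocytes as replicates, p-values measure the spread between these oocytes. CPM are over TMM-adjusted sizes, and counting error is the only error a limit of 3 counts covers. TMM factors were 1.30 to 1.37 in wt/wt, 0.651 in f/f and 0.779 to 0.952 in mutant oocytes, and with library totals as the scale the median over all genes was -0.23 in place of 0.17 (log2 fold change). Transcript lengths, gene positions and shared windows came from GENCODE M21 (GRCm38) and upstream sequences from RefSeq (GRCm38.p6).

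The members and gene lists were chosen with earlier results of these data known. All members were named, as were Kdm1a, Hmg20b, of each list up to 2 called genes of smallest p per direction, and the 5 genes nearest to Hmgb2. Another gene that the rule names is not reported here. The fit was tested on simulated counts. Alternatives were library totals, upper-quartile scaling, DESeq2 1.42.0, no filter, filterByExpr, each library treated as a sample, 1 library per oocyte, wt/wt or f/f alone as control (the latter with the spread pooled over a 3-group fit), counts thinned to 1375187 and leaving out each oocyte. For levels per kb they were full mRNA length, library totals and, chosen after seeing the files, windows found in no other gene's transcripts.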

Additional observations from a re-analysis of the deposited data

Results flagged for a closer look

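Among 24 sets of 4 or 5 oocytes tested for an oocyte far from the rest, 5 had one. The cutoff was set to flag about 1 set in 20 by chance. CPM were taken without logs and the sets share oocytes, so this rate need not hold and no excess over chance is claimed. Each is a highest value whose gap to the next oocyte took most of the range of its group. Mutant D4 stood apart for Hmgb1, with 116.1 CPM against 32.9 in the next mutant, and for Hmgn1, with 46.7 CPM against 25.4. Mutant D3 stood apart for Hmgb3, with 223.3 CPM against 85.9, and for Hmgn3, with 130.7 CPM against 26.5. Among the controls wt1 stood apart for Hmgn5, with 31.5 CPM against 10.8 in the next. D4 is the mutant with the highest total count, and its part in these values was not tested.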

How the results depend on the processing

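The number of the 7 tested relatives called was 1. It was 2 with DESeq2 and filterByExpr (Hmgn2 added) and with no filter and every library as its own sample (Hmgn3 added), 3 against wt/wt alone and 0 against the f/f oocyte alone (edgeR, 0 at an unadjusted p under 0.05 in either direction), where 105 of all genes were called against 2384. Leaving out 1 oocyte at a time gave 1 to 3: without C3 it was 3, Hmgb3, Hmgn1 and Hmgn2, without wt5 Hmgn2 was added and without D7 Hmgn3. Over 20 alternatives the log2 fold change of Hmgb2 ran from 3.54 to 4.47 and that of Hmgn1 from -2.08 to -0.37, losing its call only against the f/f oocyte. Hmga2 changed direction against the f/f oocyte alone (0.99), and leaving out 1 oocyte gave -0.46 to 0.37. Against the f/f oocyte alone Nme2 (2.46) also changed direction, and of the called genes named from the lists only Lef1 and Igf2bp3 kept their calls, while Nusap1 was at 4.67 (edgeR adjusted p = 0.0873), Aurkb at 3.69 (0.0572), Zp2 at 5.50 (0.05) and Figla at 4.41 (0.182). The causes were not tested. Levels per kb counted over unshared windows put Hmgn2 at 29.6 in wt/wt and 64.9 in mutant oocytes, from 9.25 and 20.3, and in wt/wt oocytes Hmgb1 at 16.4, Hmgb2 at 14.0 and Hmgb3 at 34.3, with Hmgb2 then at place 5 in the order. The planned count of windows unique in the genome was not run. No paired analysis was possible because summed oocytes carry several numbers and the compared groups then share only 1 number. Counts of 1 to 10 behind many values of Hmga2, Hmgn3 and Hmg20b, and the single f/f oocyte, limit what these comparisons resolve.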
